A study of Mus musculus with 8 samples.

Results

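RET is a receptor tyrosine kinase, and its ligands are the 4 members of the GDNF family. Each ligand is held by a GFRα co-receptor on the cell surface, and the pair then brings RET together and switches on its kinase. GDNF prefers GFRα1, neurturin GFRα2, artemin GFRα3 and persephin GFRα4. In the bowel this pathway drives the survival, division and migration of the crest-derived precursors that build the enteric nervous system (ENS), and in mice loss of *Ret*, *Gfra1* or *Gdnf* leaves most of the bowel without ENS. Loss of RET function is the best-known genetic cause of Hirschsprung disease in people. The 9 genes described here (*Ret*, *Gfra1* to *Gfra4*, *Gdnf*, *Nrtn*, *Artn* and *Pspn*) were taken by symbol from the gene count table, which holds 29092 genes.

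mRNA was sequenced from 4 libraries of GFP+ enteric neural crest-derived cells (ENCDCs) and 4 libraries of GFP− gut cells. Both came from bowel between stomach and anus of E13.5 embryos of *Ednrb-EGFP* heterozygotes mated with wild-type C57BL/6J mice. Bowels with GFP were picked out under a microscope, so every sorted bowel carried the transgene. GEO gives the genotype of all 8 libraries as wild-type. Bowels were dissociated with dispase and collagenase and sorted by the GFP that the *Ednrb* transgene places in ENS cells, which leaves all other bowel cell types together in the gut cell libraries. RNA samples were pooled where needed to reach 750 pg per library, so the spread between replicates is that between pooled libraries and may be partly technical. In such bulk libraries, fewer cells of a type and less RNA per cell cannot be told apart. Total counts were 13250893 to 13264785 in ENCDC libraries and 13257119 to 13267220 in gut libraries.

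The 8 crest and neuron markers summed to 39133 to 43896 reads in ENCDC libraries, against 602 to 732 in gut libraries, and all 8 were higher in ENCDCs. Of the marker genes of 9 other bowel cell types, 39 of 41 were called lower in ENCDCs. The size of the drop differed between cell types. Summed endothelium markers in ENCDC libraries still stood at 22.3% to 44.4% of their gut mean, and epithelium markers at 9.18% to 18.8%. ENCDC replicate 3 stood apart from the other 3 ENCDC libraries on the second principal component, which held 8.40% of the variance, and it had the fewest genes detected (17953). It also held the highest summed markers among ENCDC libraries for 7 of the 9 other cell types. Its smooth muscle markers, for instance, stood at 15.7% of their gut mean, against 2.05% to 5.50% in the other 3 ENCDC libraries. Values without this library are therefore also given below for *Gdnf*, *Artn* and *Nrtn*. Without it *Gfra2* and *Gfra3* stood at log2 fold changes, ENCDC over gut, of 1.19 and 1.41, and both stayed called.

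RefSeq held promoter windows for 6 of the 9 genes, and *Ret*, *Gfra2* and *Gfra3* were not among them. Sequences are shown for *Gdnf*, the member with the greatest deficit in ENCDCs, and for *Gfra1*, the member with the highest level per length in gut cells. Each is the 250 bases before a RefSeq start site in build GRCm38.p6, read 5′ to 3′ on the gene's own strand, with any match to the 4 motifs searched in capitals. *Gdnf* has 2 such windows, on the plus strand at chr15:7809798-7810047 and chr15:7813477-7813726, and the *Gfra1* window lies on the minus strand at chr19:58455399-58455648. The second *Gdnf* window and the *Gfra1* window lie within the gene bounds given below. The 50 bases after the start were found in a GENCODE transcript for *Gfra1*, and for neither *Gdnf* window.
Gdnf, first window: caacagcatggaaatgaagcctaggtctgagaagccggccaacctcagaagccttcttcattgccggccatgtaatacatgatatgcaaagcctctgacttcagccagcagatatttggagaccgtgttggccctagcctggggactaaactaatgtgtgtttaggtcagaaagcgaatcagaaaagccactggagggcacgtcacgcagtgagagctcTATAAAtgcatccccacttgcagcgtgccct
Gdnf, second window: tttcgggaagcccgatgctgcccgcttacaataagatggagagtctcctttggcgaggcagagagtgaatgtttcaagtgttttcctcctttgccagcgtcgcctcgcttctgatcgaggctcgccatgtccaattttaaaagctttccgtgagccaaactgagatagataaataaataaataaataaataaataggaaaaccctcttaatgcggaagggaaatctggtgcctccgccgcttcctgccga
Gfra1: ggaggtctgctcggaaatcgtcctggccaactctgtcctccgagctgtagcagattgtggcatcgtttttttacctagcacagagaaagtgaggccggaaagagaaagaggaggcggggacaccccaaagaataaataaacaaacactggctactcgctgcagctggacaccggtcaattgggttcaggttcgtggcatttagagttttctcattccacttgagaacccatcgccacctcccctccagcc
The capitals in the first *Gdnf* window mark TATAAA, the core of a TATA box. A match to it on either strand occurred in 12.4% of 32851 windows of the same length. No match to the SOX core ACAAAG, the GC box GGGCGG or the CArG box, which binds serum response factor, was found in any of the 3 windows shown. These occur in 16.5%, 32.7% and 1.47% of windows, and a CArG box may itself hold TATAAA. Among the windows not shown, *Artn* held 2 GC boxes, *Nrtn* held 1, and 1 of the 2 *Gfra4* windows held 1 SOX core. G and C made up 50.8% and 46.8% of the *Gdnf* windows and 52.4% of the *Gfra1* window, which 49.7% of windows fall below. A match is a description of the letters and not of binding.

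All 9 members were measured in enough libraries to be tested. *Ret* and 3 of the 4 co-receptors were higher in ENCDCs, while *Gfra4* and the ligands *Gdnf* and *Artn* were lower. In all, 4 of 9 members were called higher and 3 lower at an adjusted p under 0.05, where 17.0% of the 18866 genes tested were called higher and 20.9% lower (edgeR quasi-likelihood F test, Benjamini-Hochberg). *Nrtn* and *Pspn* were not called. The 4 ENCDC and 4 gut libraries did not overlap for 7 of the 9 members, and for 37.3% of all genes tested. The median log2 fold change of all genes was −0.04.

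**Figure D1:**
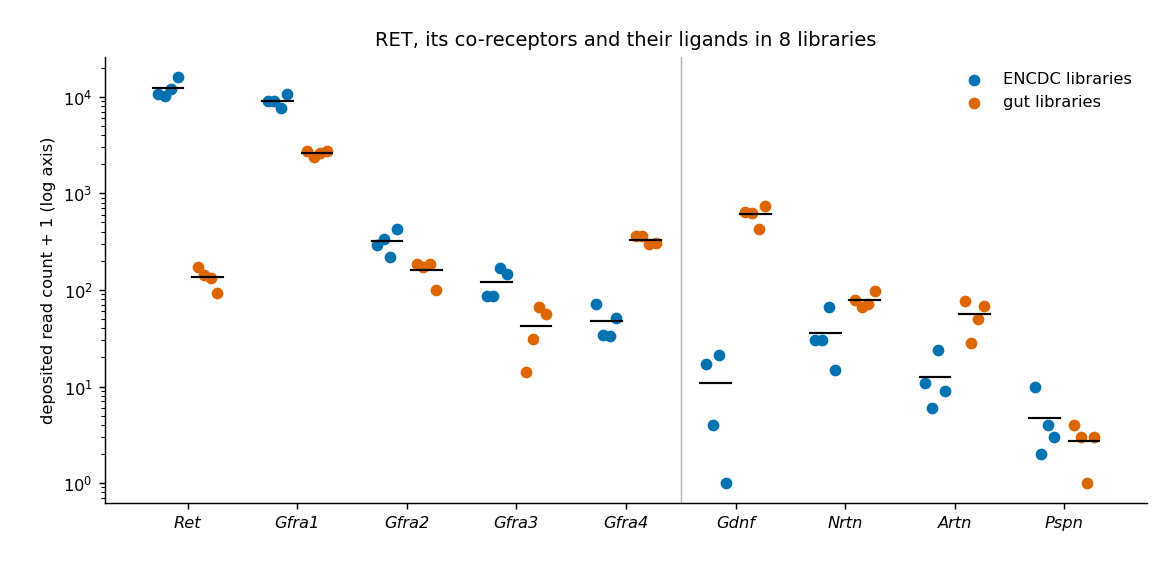
Deposited read counts, plus 1, of the 9 family members on a log axis. Blue points are the 4 ENCDC libraries, orange points the 4 gut libraries and black bars the group means, with receptors left of the grey line and ligands right of it. The populations overlap for *Nrtn* and *Pspn* and for none of the other 7 genes.

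*Ret* lies on chromosome 6 from 118151745 to 118197718, on the minus strand (GRCm38). It had 10684, 10229, 12180 and 15852 reads in ENCDC replicates 1 to 4, against 170, 141, 133 and 92 reads in gut replicates 1 to 4. Every ENCDC library lay far above every gut library, and the highest ENCDC value and the lowest gut value were both those of replicate 4. ENCDCs averaged 12236 ± 2551 reads and gut cells 134.0 ± 32.2 (mean ± SD over 4 libraries of each, here and for the genes that follow). For log2 fold changes, ENCDC over gut, the value after ± is an SE derived from the F statistic of the same test, here and below. The log2 fold change of *Ret* was 6.56 ± 0.22 (edgeR adjusted p = 5.48e-09). Gut libraries thus held 0.752% to 1.39% of the ENCDC mean. The summed crest and neuron markers in the same gut libraries stood at 1.45% to 1.76% of theirs, and 6 single markers ranged from 0.570% (*Foxd3*) to 4.27% (*Stmn2*) on average, so the *Ret* reads of the gut libraries fell within the range of these markers.

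*Gfra1*, which encodes the co-receptor for GDNF, lies on chromosome 19 from 58235604 to 58455909, on the minus strand. It had 8962, 8977, 7680 and 10711 reads in ENCDC libraries, against 2764, 2364, 2638 and 2745 in gut libraries. The populations did not overlap, yet no gut library had fewer than 2364 reads, and the 4 lay close to each other. The means were 9082.5 ± 1244 in ENCDCs and 2628 ± 184 in gut cells, with a log2 fold change of 1.84 ± 0.11 (edgeR adjusted p = 3.79e-07). In gut libraries *Gfra1* stood at 26.0% to 30.4% of its ENCDC mean, above each of the 8 crest and neuron markers. *Stmn2*, for instance, stood at 3.07% to 5.24% of its own. The annotation places 416 exon bases of *Gfra1* opposite the antisense gene *Gm16277*, and the library kit did not keep the strand, so reads of the pair cannot be separated there.

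*Gfra2*, encoding the co-receptor for neurturin, lies on chromosome 14 from 70890120 to 70979838 on the plus strand. It had 293, 333, 218 and 429 reads in ENCDC libraries, against 185, 172, 185 and 100 in gut libraries. The lowest ENCDC library, replicate 3, was above the highest gut library by a narrow margin, and gut replicate 4 was well below the other 3 gut libraries. The means were 318 ± 87.9 in ENCDCs and 160.5 ± 40.8 in gut cells, and the log2 fold change was 1.04 ± 0.27 (edgeR adjusted p = 0.0109). Gut libraries held 31.4% to 58.1% of the ENCDC mean, again above every crest and neuron marker.

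*Gfra3*, the artemin co-receptor gene, lies on chromosome 18 from 34689898 to 34720387 on the minus strand. It had 85, 86, 166 and 145 reads in ENCDC libraries, against 13, 30, 65 and 56 in gut libraries. The groups did not overlap, but both were widely spread. The means were 120.5 ± 41.3 in ENCDCs and 41.0 ± 23.8 in gut cells, and the log2 fold change was 1.60 ± 0.49 (edgeR adjusted p = 0.0254). The call did not survive the omission of ENCDC replicate 4 (1.49, adjusted p = 0.0569) or of gut replicate 2 (1.45, adjusted p = 0.0744), while over the 8 single omissions the value ran from 1.30 to 1.91 and the adjusted p from 0.0231 to 0.0744.

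*Gfra4*, whose product binds persephin, was the one receptor gene lower in ENCDCs. It lies on chromosome 2 from 131039632 to 131043088 on the minus strand. It had 70, 33, 32 and 50 reads in ENCDC libraries, against 357, 359, 299 and 305 in gut libraries. All 4 gut libraries were several times above every ENCDC library. The means were 46.2 ± 17.9 in ENCDCs and 330.0 ± 32.4 in gut cells, with a log2 fold change of −2.78 ± 0.29 (edgeR adjusted p = 2.31e-05). ENCDC libraries held 9.70% to 21.2% of the gut mean, and ENCDC replicates 2 and 3, with 33 and 32 reads, were the lowest. An annotated microRNA gene, *Mir6973b*, shares 80 exon bases with it on the same strand, and these reads too cannot be separated.

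**Figure D2:**
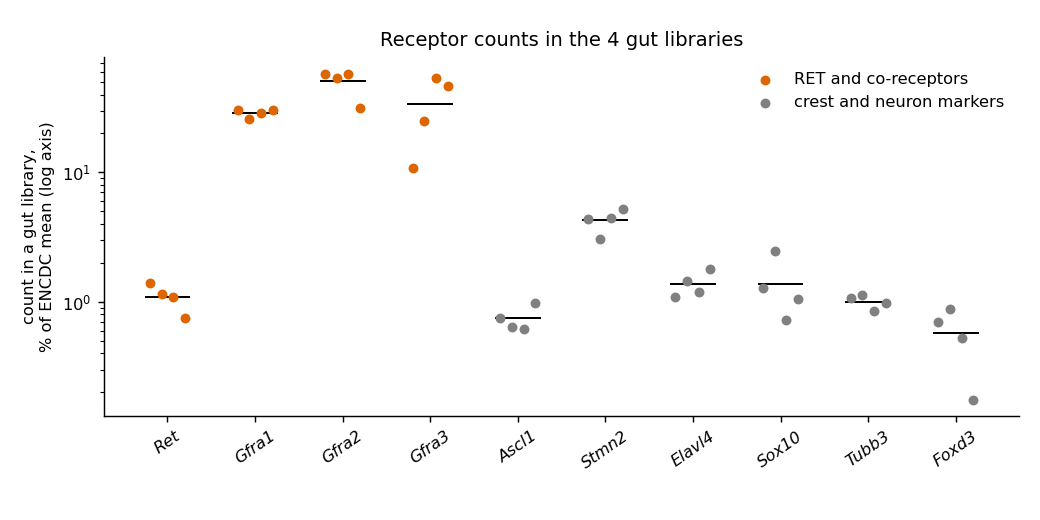
Count in each of the 4 gut libraries as a percentage of the ENCDC mean of the same gene, on a log axis. Orange points are *Ret* and the 3 co-receptor genes higher in ENCDCs, grey points 6 of the crest and neuron markers, and black bars are means. *Ret* sits among the markers at 0.752% to 1.39%, while *Gfra1* at 26.0% to 30.4%, *Gfra2* and *Gfra3* lie above all of them.

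*Gdnf*, the ligand that attracts ENS precursors and is needed for their colonisation of the bowel, had the largest difference of the 4 ligands. It lies on chromosome 15 from 7810846 to 7837575 on the plus strand. It had 16, 3, 20 and 0 reads in ENCDC libraries, against 633, 623, 422 and 746 in gut libraries. Gut libraries were all high and ENCDC libraries all near the limit of detection, where a count of 0 in the 13264785 reads of ENCDC replicate 4 allows up to 3 reads. The means were 9.75 ± 9.74 in ENCDCs and 606 ± 135 in gut cells, with a log2 fold change of −5.90 ± 0.60 (edgeR adjusted p = 1.84e-05). Without ENCDC replicate 3 the log2 fold change was −6.50, and the ENCDC mean was 1.05% of the gut mean, compared with 1.61% in all 4 ENCDC libraries. In each ENCDC library *Gdnf* stood at 0% to 3.30% of its gut mean. Smooth muscle markers stood at 5.50%, 3.71%, 15.7% and 2.05% of theirs in ENCDC replicates 1 to 4, and mesenchyme markers at 4.79%, 1.64%, 11.7% and 2.60%, so *Gdnf* lay below both marker sums in every ENCDC library.

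*Artn*, which encodes artemin, lies on chromosome 4 from 117926162 to 117929763 on the minus strand. It had 10, 5, 23 and 8 reads in ENCDC libraries, against 76, 27, 49 and 68 in gut libraries. The highest ENCDC library, replicate 3, came within a few reads of the lowest gut library. The means were 11.5 ± 7.94 in ENCDCs and 55.0 ± 21.8 in gut cells, with a log2 fold change of −2.20 ± 0.60 (edgeR adjusted p = 0.0140). The ENCDC mean was 20.9% of the gut mean, and 13.9% without ENCDC replicate 3.

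*Nrtn*, which encodes neurturin, lies on chromosome 17 from 56751325 to 56757530 on the minus strand. It had 29, 29, 66 and 14 reads in ENCDC libraries, against 77, 66, 70 and 96 in gut libraries. The groups touched at 66 reads, the count of both ENCDC replicate 3 and gut replicate 2. The means were 34.5 ± 22.2 in ENCDCs and 77.2 ± 13.3 in gut cells, and the log2 fold change of −1.12 ± 0.48 was not called (edgeR adjusted p = 0.0876). Without ENCDC replicate 3 the ENCDC mean was 24.0, the groups no longer overlapped and the log2 fold change was −1.63 (adjusted p = 8.42e-03), within a range of −1.63 to −0.86 and adjusted p of 8.42e-03 to 0.196 over the 8 single omissions. The smooth muscle and mesenchyme markers named above were highest in the same library, and their part in its *Nrtn* and *Artn* reads was not tested.

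*Pspn*, which encodes persephin, lies on chromosome 17 from 56999457 to 57000018 on the minus strand. It had 9, 1, 3 and 2 reads in ENCDC libraries, against 3, 2, 0 and 2 in gut libraries. Both groups were near 0 and overlapped. The log2 fold change of 1.09 ± 1.03 was not called (edgeR adjusted p = 0.445), and no difference was detectable at this depth.

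**Figure D3:**
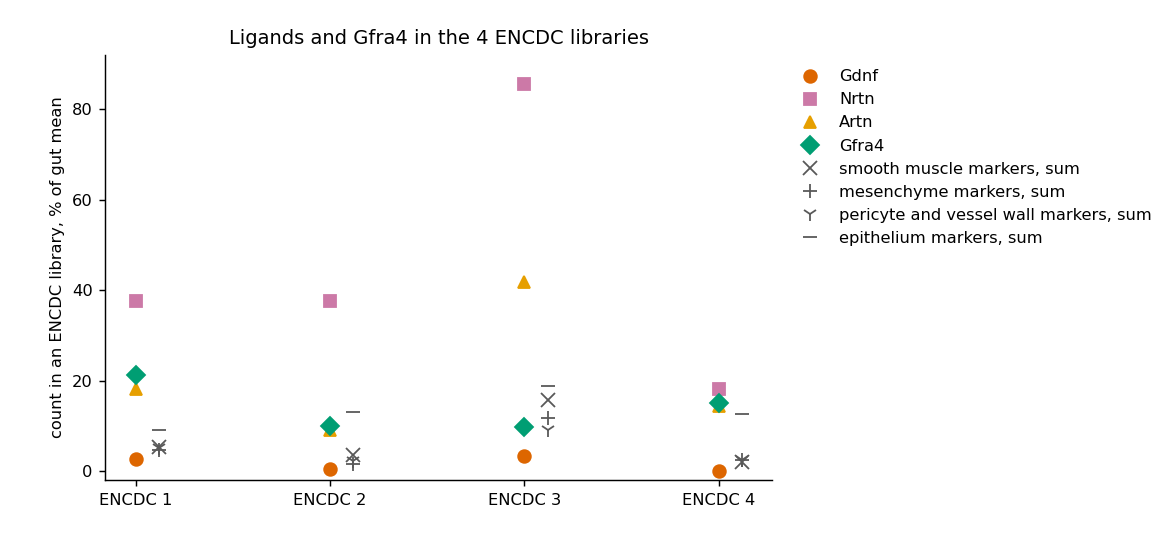
Count in each of the 4 ENCDC libraries as a percentage of the gut mean of the same gene. Coloured symbols are the ligands *Gdnf*, *Nrtn* and *Artn* and the co-receptor *Gfra4*, and grey symbols the summed markers of 4 other bowel cell types. *Gdnf* stays at or under 3.30%, while *Nrtn* reaches 85.4% and *Artn* 41.8% in ENCDC replicate 3, where the smooth muscle markers also peak at 15.7%.

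**Figure D4:**
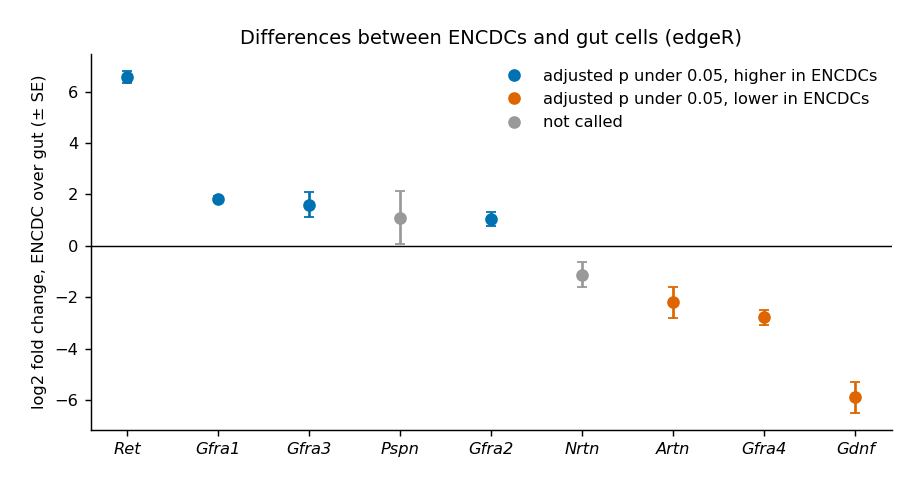
Log2 fold change, ENCDC over gut, of the 9 members, ordered by value, with bars of 1 SE derived from the edgeR F statistic. Blue marks members called higher in ENCDCs, orange those called lower and grey those not called. The values run from 6.56 for *Ret* to −5.90 for *Gdnf*, with the co-receptor genes on both sides of 0.

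Levels of different genes were compared as deposited reads per kilobase of merged exons. In ENCDCs *Ret* stood at 1809 ± 377 and *Gfra1* at 1659 ± 227 reads per kilobase, and their libraries overlapped. Both were far above *Gfra2* at 89.9 ± 24.8, and from *Gfra2* down each gene overlapped its neighbour in the order *Gfra3*, *Nrtn*, *Gfra4*, *Pspn*, *Artn* and *Gdnf*, the last at 2.65 ± 2.65. In gut cells *Gfra1* led at 480 ± 33.7 reads per kilobase, clear of *Gdnf* at 165 ± 36.7 and *Gfra4* at 152 ± 15.0, which overlapped each other. *Nrtn* followed at 75.5 reads per kilobase, clear of its neighbours on either side. *Gfra2*, *Artn*, *Gfra3* and *Ret* lay between 45.4 and 19.8, each overlapping the next, and *Pspn* was lowest at 3.69. Per kilobase of the longest coding transcript, *Gfra4* stood at 210 to 252 in gut libraries, clear above *Gdnf* at 115 to 203, so the order of these 2 genes depends on the length used. By that length *Gfra4* and *Pspn* did not overlap in ENCDCs.

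Within the co-receptors, *Gfra1* made up 89.8% to 91.5% of the summed reads per kilobase in ENCDC libraries, against 65.3% to 71.8% in gut libraries. *Gfra4* made up 0.851% to 1.80% of that sum in ENCDC libraries and 19.6% to 25.1% in gut libraries. *Gfra4* was thus the second largest of the 4 in every gut library and the smallest in every ENCDC library. Per kilobase of the longest coding transcript it was above *Gfra3* in ENCDC replicate 1, at 49.1 against 42.6 reads per kilobase. Among the ligands in gut libraries, *Gdnf* made up 56.4% to 68.0% of summed reads per kilobase, *Nrtn* 25.9% to 33.6%, *Artn* 4.50% to 11.1% and *Pspn* 0% to 2.22%.

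Each member was also set against *Ret* within the same library, which needs no scaling between libraries. *Gfra1* reads amounted to 63.1% to 87.8% of *Ret* reads in ENCDC libraries, against 1626% to 2984% in gut libraries. Every gut library therefore had many *Gfra1* reads for each *Ret* read, while every ENCDC library had fewer *Gfra1* than *Ret* reads. These reads are not scaled for gene length. Per kilobase of merged exons, *Gfra1* was above *Ret* in ENCDC replicates 1 (1637 against 1580) and 2 (1639 against 1512). Per kilobase of the longest coding transcript, it was above *Ret* in ENCDC replicate 2 (1934 against 1875). *Gfra2* reads amounted to 1.79% to 3.26% of *Ret* reads in ENCDC libraries and 109% to 139% in gut libraries. *Gfra3* stood at 0.796% to 1.36% in ENCDC libraries and 7.65% to 60.9% in gut libraries, and *Gfra4* at 0.263% to 0.655% in ENCDC libraries and 210% to 332% in gut libraries. *Gdnf* stood at 0% to 0.164% of *Ret* reads in ENCDC libraries and 317% to 811% in gut libraries. The ENCDC minus gut difference of the log2 ratio was −4.74 for *Gfra1*, −5.53 for *Gfra2*, −4.80 for *Gfra3*, −9.41 for *Gfra4* and −13.43 for *Gdnf*. It was −7.87 for *Nrtn*, −8.84 for *Artn* and −5.64 for *Pspn*. The *Gdnf* difference depended on its few ENCDC reads and the 0.5 added to each count. It was −12.20 without ENCDC replicate 4, which had 0 reads, −14.07 without ENCDC replicate 1 and −14.11 without ENCDC replicate 3. The *Pspn* difference was −6.27 without gut replicate 3, and that of *Gfra3* −5.39 without gut replicate 1. For all 8 members the ratio was lower in 4 of 4 ENCDC libraries than in any gut library. The 2-sided exact permutation p was 0.0286 for each of the 8, the smallest that 4 against 4 libraries can give, and 0.0286 after adjustment over the 8 tests. All 8 ratios share the *Ret* count, whose own log2 fold change was 6.56. Any member that rose clearly less than *Ret* gives a lower ratio in ENCDCs, and *Pspn*, itself not called, reached the same p. These 8 p-values were therefore largely fixed by *Ret* and are not 8 separate results about the members.

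The likeness of other genes to a member was measured as the root mean square difference between their centred log2 values over the 8 libraries, among 11548 genes with a mean of at least 100 reads in 1 population. Among the closest to *Ret* were *Stmn3* at 0.21, a microtubule regulator of neurons, and *Chrna3* at 0.22, a nicotinic receptor subunit. *Stmn3* had 1850, 2256, 1982 and 2009 reads in ENCDC libraries, against 17, 12, 13 and 7 in gut libraries, and like *Ret* it was lowest in gut replicate 4. Closest to *Gfra1* were *Hoxa2* at 0.12, *Fscn1* at 0.12, an actin-bundling protein gene, and *Ptprm* at 0.13, a receptor phosphatase gene. Closest to *Gfra2* were *Sema3c* at 0.14, *Rb1* at 0.14 and *Slc4a7* at 0.16. *Sema3c*, which encodes a secreted guidance protein, shared the low values of *Gfra2* in ENCDC replicate 3 and gut replicate 4, with 704, 606, 425 and 898 reads in ENCDC libraries and 371, 311, 402 and 185 in gut libraries. Closest to *Gdnf* were *Cavin2* at 0.24, a caveola gene, *Tlx1* at 0.24, a homeobox gene, and *Myocd* at 0.25, a coactivator of smooth muscle genes that is also one of the smooth muscle markers used here. *Tlx1* had 8, 0, 13 and 3 reads in ENCDC libraries and 526, 525, 455 and 587 in gut libraries, and its highest ENCDC library was replicate 3, as for *Gdnf*.

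Other genes of the pathway were followed in 4 lists. Of 6 tested co-receptors and other binding partners of the family, 1 was higher in ENCDCs and 2 were lower, beside 17.0% and 20.9% of all genes tested, with a median log2 fold change of −0.64 beside −0.04. *Gas1*, a GPI-anchored relative of the co-receptors that can bind RET, had 2672, 2271, 2099 and 2522 reads in ENCDC libraries, against 7267, 6898, 8042 and 8123 in gut libraries. Every gut library was above every ENCDC library, with a log2 fold change of −1.62 ± 0.10 (edgeR adjusted p = 5.24e-07). *Lrig1*, which restrains RET signalling, was lower at −0.97 ± 0.12 (adjusted p = 7.94e-05), and *Sdc3*, a heparan sulfate proteoglycan that binds GDNF, was higher at 0.78 ± 0.16 (adjusted p = 2.36e-03). *Ncam1*, an alternative receptor for GDNF, averaged 3438.5 ± 683 reads in ENCDCs and 3614 ± 455 in gut cells, and was not called.

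Of 24 RET adaptors and effectors, 4 were higher, 4 were lower and 16 were not called, with a median of 0.07, so the shares called were near those of all genes. *Gab2*, a scaffold protein gene, was higher at 1.56 ± 0.20 (adjusted p = 1.24e-04), as was *Ptprf*, a phosphatase that can dampen RET, at 0.79 ± 0.18 (adjusted p = 5.72e-03). *Shc3*, a neuronal Shc adaptor named here after its values were seen, had 69, 118, 5 and 137 reads in ENCDC libraries, against 5, 10, 13 and 0 in gut libraries. It was called higher at 3.59 ± 1.02 (adjusted p = 0.0170) although ENCDC replicate 3 lay within the gut range, and it was not called with voom and limma (adjusted p = 0.0744, in a range of 1.03e-03 to 0.106 over the 7 other settings). *Grb7* and *Dok4*, adaptors that dock on activated RET, were lower at −2.17 ± 0.47 (adjusted p = 4.14e-03) and −1.17 ± 0.18 (adjusted p = 4.66e-04).

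The PI3-kinase subunit genes *Pik3r1* (0.53, adjusted p = 0.0446) and *Pik3ca* (−0.55, adjusted p = 0.0209) were called in opposite directions, and the docking protein gene *Frs2* was called lower (−0.42, adjusted p = 0.0336). Each of these 3 calls was lost under some omissions of 1 library, with the direction kept. The *Frs2* call was lost on leaving out any of ENCDC replicates 1 and 2 and gut replicates 1 to 4 (−0.44 to −0.41, adjusted p of 0.0543 to 0.0704). The *Pik3r1* call was lost without any of ENCDC replicates 1, 2 and 4 and gut replicates 1, 2 and 4 (0.38 to 0.59, adjusted p of 0.0560 to 0.144). *Pik3ca* was no longer called on leaving out ENCDC replicate 2 (−0.52, adjusted p = 0.0517) or gut replicate 3 (−0.53, adjusted p = 0.0530). Of the 24 genes, 2 were called lower without gut replicate 3.

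Of 10 ERK feedback and ETS genes, which RET and other receptor tyrosine kinases induce, 7 were higher in ENCDCs, 1 was lower and 2 were not called, where 17.0% of all genes were called higher and 20.9% lower. The median log2 fold change of the list was 1.31. *Dusp6*, an ERK phosphatase gene, had 5588, 6002, 5206 and 5946 reads in ENCDC libraries, against 1204, 1187, 974 and 936 in gut libraries. The libraries of each population lay close together, and the log2 fold change was 2.45 ± 0.11 (edgeR adjusted p = 4.12e-08). The ETS factor genes *Etv5* and *Etv1*, at 1.60 ± 0.17 (adjusted p = 2.83e-05) and 0.73 ± 0.16 (adjusted p = 3.72e-03), were higher too. *Spry1*, an antagonist of RET signalling in the mouse kidney, was the one gene called lower, with 957, 1004, 919 and 1048 reads in ENCDC libraries against 1574, 1505, 1484 and 1654 in gut libraries (−0.61 ± 0.10, adjusted p = 5.03e-04). The other 4 genes called higher had log2 fold changes between 1.02 and 2.21. Among them were *Spry2* at 1.88 ± 0.31 and *Spry4* at 1.02 ± 0.23, named here as relatives of *Spry1*. The Sprouty genes of the list thus did not share 1 direction.

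Of 8 transcription factors listed upstream of *Ret*, 6 were tested, of which 5 were higher and 1 was lower, again beside 17.0% and 20.9% of all genes, with a median log2 fold change of 2.34. *Sox10*, a factor without which the ENS fails to form in mice, was higher at 6.23 ± 0.30 (edgeR adjusted p = 7.22e-08), a difference of about the size of that of *Ret*, and it also stands in the crest and neuron marker list. *Hoxb5*, a homeobox factor of the crest, followed at 3.39 ± 0.12 (adjusted p = 9.62e-09) and *Rara*, a retinoic acid receptor gene, at 1.30 ± 0.12 (adjusted p = 1.03e-05). *Gata2*, a zinc finger factor gene, went the other way, with 18, 9, 36 and 11 reads in ENCDC libraries, against 164, 111, 88 and 82 in gut libraries (−2.53 ± 0.50, adjusted p = 2.17e-03). Its libraries did not overlap, and its highest ENCDC library was again replicate 3.

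**Figure D5:**
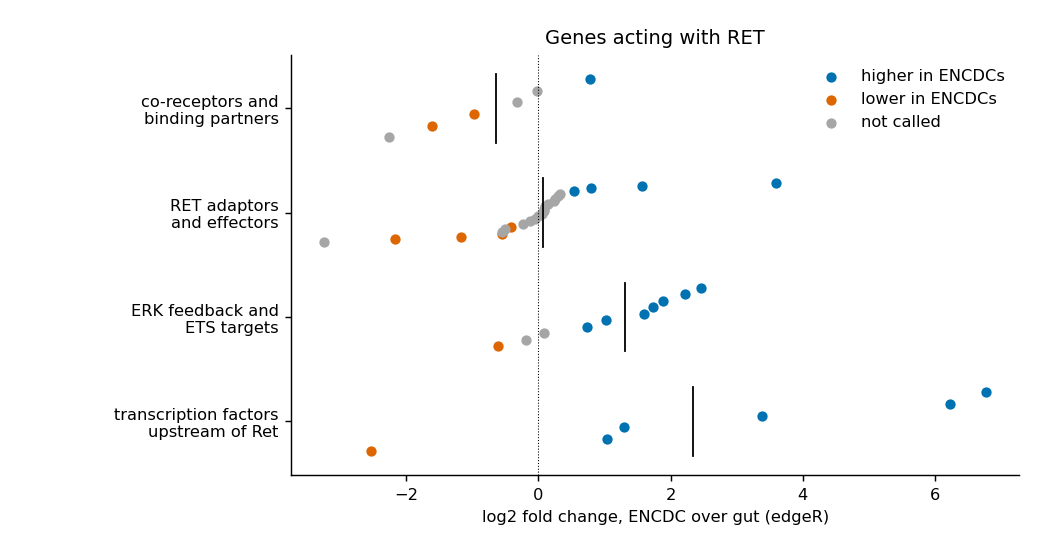
Log2 fold changes, ENCDC over gut, of the 46 tested genes of the 4 pathway lists. Each point is a gene, blue where called higher in ENCDCs, orange where called lower and grey where not called, and black bars are list medians. The medians run from −0.64 for the binding partners to 2.34 for the transcription factors, and the points of the adaptors cluster around 0.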

How the data were processed

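STAR 2.4.2a was used by the authors to align reads to mm10, and PORT to bring libraries to one depth. Of the read counts per gene that PORT gives, the authors deposited the minimum, as whole numbers. GEO's design text names small RNAs and CPM for the same table. The whole values and their totals, given above, are those of counts and not of CPM. They were taken as mRNA counts because the paper and the deposited labels describe mRNA. All 8 libraries were fitted at once in R 4.3.3 with edgeR 4.0.16 (TMM factors, quasi-likelihood F test, Benjamini-Hochberg over all genes tested). Tested were genes that, in 1 population or both, averaged 3 reads or more and were detected in 3 or more of 4 libraries, and they were called at an adjusted p under 0.05. Fits with limma 3.58.1 (voom) and DESeq2 1.42.0, other scaling factors, other filters, a replicate block and the omission of each library were alternatives. Ratios to *Ret* had 0.5 added to both counts and were tested in Python 3.11.15 with scipy 1.17.1. Gene positions, exon lengths and overlaps came from GENCODE M21, and promoter windows from RefSeq (GRCm38.p6). The fitting code was tested on simulated data.

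The members and gene lists were chosen with earlier results of these data known. Named were all members, up to 4 called genes of highest mean count per pathway list, genes called against most of their list, and the 3 nearest profiles of *Ret*, *Gfra1*, *Gfra2* and *Gdnf*. Some genes that these rules and lists hold are not reported here. All 7 smooth muscle, 6 mesenchyme, 2 interstitial cell of Cajal, 5 epithelium, 4 pericyte and vessel wall, 4 macrophage and 4 erythroid markers were called lower in ENCDCs, as were 3 of 4 mesothelium and 4 of 5 endothelium markers.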

Additional observations from a re-analysis of the deposited data

Results flagged for a closer look

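In 92 groups of 4 libraries that were checked, 4 held a library far from the other 3, where chance alone gives about 1 in 20 such groups. The share flagged was thus no higher than chance gives. The groups were also not independent, since all ratios share the *Ret* count. Gut replicate 4 had the lowest *Gfra2* count of the gut libraries, 100 reads, against 172 to 185 in the other 3. ENCDC replicate 3 had the highest summed count of interstitial cell of Cajal markers (*Kit* and *Ano1*) of the ENCDC libraries, 733 reads, against 304 to 374 in the other 3. ENCDC replicate 4 had the highest *Rara* count of the ENCDC libraries, 1547 reads, against 1379 to 1403. Gut replicate 2 had the lowest summed pericyte and vessel wall markers of the gut libraries, 8852 reads, against 10039 to 10254.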

How the results depend on the processing

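No member changed direction under any of the 7 other settings of the fit or on leaving out any library, and *Ret*, *Gfra1*, *Gfra2*, *Gfra4*, *Gdnf* and *Artn* were called in each. *Gfra3* was called under all 7 other settings, and its log2 fold change ran from 1.30 to 1.91 without 1 library, with the call lost without ENCDC replicate 4 or gut replicate 2. *Nrtn*, not called by edgeR, was called lower by voom and limma (−1.29, adjusted p = 0.0321) and by DESeq2 (−1.16, adjusted p = 0.0460), and ran from −1.63 to −0.86 without 1 library; the cause was not tested. *Gdnf* was at −6.85 with voom and limma. *Pik3r1* was not called with RLE factors, no factors or the replicate block (adjusted p of 0.0624 to 0.0854), nor *Shc3* with voom and limma or the replicate block. *Pspn* had no value with a minimum mean of 10 or without ENCDC replicate 1. Of the adaptors and effectors, 2 instead of 4 were called higher with the replicate block, and 2 to 4 over the 7 other settings. Without 1 library 3 to 6 were called higher, with 6 of them without ENCDC replicate 3. Called lower were 4 to 6 under the other settings and 2 to 5 without 1 library, with 2 of them without gut replicate 3. With 3 libraries in a group the smallest exact permutation p is 0.0571, so 0 of the 8 ratios to *Ret* could pass, and the number was 0 to 0 over these omissions. Ranked by the longest coding transcript in place of merged exons, 14 of 18 places in the order of levels were the same, and in gut cells *Gfra4* moved above *Gdnf* and *Ret* above *Gfra3*.

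Deviations of same-numbered libraries of the 2 populations showed little correlation (r of −0.04 to 0.08). With 4 libraries per population this cannot decide whether replicate numbers pair them, and the labels do not say. A fit with the replicate block called 2609 genes higher and 3324 lower, against 3212 and 3946 without it, and left the calls of the 9 members as they were. Depth limits *Pspn* and the ENCDC counts of *Gdnf* and *Artn*, which rest on few reads.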
